A study of Danio rerio with 14 samples.

Results

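Active enhancers and promoters carry histone H3 acetylated on lysine 27 (H3K27ac). Where many such elements lie close together, they form large stitched domains, which in many cell types are found near genes of cell identity. In T cells, such genes include lineage transcription factors, parts of the T-cell receptor machinery and cytokine or chemokine receptors. The regions described here are the stitched H3K27ac domains that ranked among the largest in every sample of IRF4-driven zebrafish T-cell tumors and normal thymus. They were chosen by covered length: in each list, peaks lying within 12500 bp on chromosomes 1 to 25 were joined, the 500 joined domains with the most base pairs under peaks were kept, and kept domains of the 7 lists were merged where they overlapped by at least 1 bp. Of 1273 merged domains, 82 were kept in all 7 lists, and they held 8206 of the 220034 peaks in the lists. Covered length and number of lists are therefore the selection itself and are given as a description.

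The tumors came from Tg(lck:IRF4) zebrafish, which carry the gene of human IRF4, a transcription factor of lymphocytes, and an mCherry marker under the zebrafish lck promoter, and were sampled as 1 library for each of tumors 1, 2, 3 and 4. The age of the fish with tumors was not given in the sources used here. Thymus 2, 3 and 5 came from 3-month-old control fish that carry mCherry alone under the same lck promoter, a promoter active in lymphocytes. Cells were sorted before crosslinking and each H3K27ac library was compared by the authors with its whole cell lysate. The thymus samples are described as pooled in one passage of the study and without mention of pooling elsewhere, and the number of fish in a library was not given in the sources used here. The spread between samples may be partly technical. A list records cells of mixed types together, so fewer cells of a type and less acetylation per cell cannot be told apart.

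Of the 7 lists, those of tumor 4 and thymus 2 were short. On chromosomes 1 to 25, tumor 4 had 7900 kb under peaks, against 12758 to 15515 kb in the other tumors, and thymus 2 had 8040 kb, against 14113 and 15683 kb in thymus 3 and 5. Peak names in thymus 2 and 5 carry a batch word, and what it stands for is not known, so thymus 3 is the only thymus list without it. The narrowest peak also differed, at 72 to 128 bp in the tumors and 50 to 54 bp in the thymus samples. Read counts are not part of the lists, and the depth behind a value is unknown.

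The 82 domains spanned 11.4 to 163 kb (median 52.6 kb) and 4.95 Mb in total, on 23 of the 25 chromosomes. The other 1191 merged domains had a median span of 25.6 kb. The longest was the ets1 domain (ets1, an ETS-family transcription factor of lymphocytes), at chr18:48211054-48373920 on GRCz11. Merging across lists can chain neighbours: 24 domains were 1 joined domain in all 7 lists, and in 6 domains, those of dgkza, socs1a, brd2a, jdp2b, purbb and sprn2, no base pair lay inside a kept domain of every list. The part kept in every list had a median of 15.3 kb a domain. The rank of a domain in a list is that of its largest kept piece there. Lengths given below cover the whole merged domain, so ranks and lengths need not follow the same order. Only 7 domains ranked in the top 100 of all 7 lists, and 17 ranked in the top 100 of none.

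Near the limit of 500, the domain annotated with LOC103910056 (chr2:27486689-27531566) had the rank closest to it, 490 in thymus 2, although the same domain ranked first in tumor 4. It had 6785, 10905, 10615 and 19202 bp under peaks in tumors 1, 2, 3 and 4, against 2337, 5106 and 8554 bp in thymus 2, 3 and 5. Just outside, an unnamed domain (chr8:40252738-40293138) was kept in 6 lists and ranked 512 in tumor 2. Of the 100 domains kept in 6 lists, 47 were missing from thymus 2 alone. Without thymus 2, the number of domains kept in all of the other 6 lists was 129.

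Gene names came from the study's own annotation of GRCz11, which names the gene with the closest start site of a region or the nearby gene with the most promoter H3K27ac. It was held here in part only. It named 65 of the 82 domains, with 101 names in all, of which 99 are listed by RefSeq on a later build (GRCz12tu), each on the same chromosome there. A name marks proximity and does not show which gene a domain acts on. Of 141 genes in 7 lists of T-cell, B-cell, myeloid and growth genes, 42 appeared anywhere in the annotation. Of these, 14 were named at the shared domains and 19 at other merged domains only. Where a domain had several names, a gene of these lists was used first. The socs1a domain, for example, is also annotated with dexi, and the zap70 domain with mknk2b and rexo1. The annotation held none of the 9 B-cell and none of the 12 myeloid and erythroid markers, so their absence from the domains cannot be read.

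The first question was how much of each sample's length under H3K27ac peaks the shared domains held. They covered 790, 920, 761 and 597 kb in tumors 1, 2, 3 and 4, and 450, 943 and 1045 kb in thymus 2, 3 and 5. The group means were 767 ± 133 kb (SD, n = 4) in tumors and 813 ± 318 kb (SD, n = 3) in thymus, and the groups overlapped. As a share of each list's covered length, the domains took 6.19, 5.93, 5.24 and 7.55% in tumors 1, 2, 3 and 4, and 5.60, 6.68 and 6.66% in thymus 2, 3 and 5. The means were 6.23 ± 0.970% (SD, n = 4) and 6.31 ± 0.620% (SD, n = 3), and both differences were smaller than the spread among replicates. Peaks lay over 12.05 to 18.6% of the total span in tumors and over 9.09 to 21.1% in thymus.

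Inside the domains, the tumor lists had fewer peaks, and the median peak was wider. Tumors 1, 2, 3 and 4 had 948, 1129, 969 and 855 constituent peaks, and thymus 2, 3 and 5 had 1187, 1591 and 1527. The means were 975 ± 114 (SD, n = 4) and 1435 ± 217 (SD, n = 3), and the groups did not overlap. As a share of a list's peaks on chromosomes 1 to 25, constituents were 3.92 to 5.10% in tumors and 4.37 to 4.82% in thymus. In this share the groups overlapped. Tumors 1, 2, 3 and 4 had a median constituent width of 568, 497, 502 and 417 bp, and thymus 2, 3 and 5 had one of 220, 259 and 288 bp. The difference was not particular to the domains: peaks outside them had medians of 331 to 450 bp in tumors and 180 to 220 bp in thymus. Constituents at least 1 kb wide made up 22.7 to 27.5% of the peaks in tumors and 8.26 to 20.3% in thymus. They took 58.7 to 63.1% of the covered length in tumors, against 35.9, 61.8 and 65.5% in thymus 2, 3 and 5. In covered length the groups thus overlapped, and wide peaks made up as much of it in thymus 3 and 5 as in tumors. Thymus 3 alone, the list without the batch word, had 1591 peaks with a median of 259 bp, outside the tumor range in both.

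Part of the surplus of thymus peaks lay below the narrowest peak of tumor 1, which measured 128 bp. Peaks under that width were 0 to 13.3% of constituents in tumors and 21.2 to 25.4% in thymus. With such peaks left out of the same 82 domains, the mean difference in constituent peaks, tumor minus thymus, was -180, against -460 with them, and the groups overlapped. The difference in median width was then 170 bp, against 240 bp with all peaks, and the groups still did not overlap. Constituents were wider than the same list's other peaks, with a ratio of medians of 1.2 to 1.5 in tumors and 1.22 to 1.31 in thymus. The groups overlapped in this ratio. Domains were kept by covered length, which favours wide peaks, so a ratio above 1 follows in part from the rule. The median gap between neighbouring constituents was 947 to 1600 bp in tumors and 751 to 1019 bp in thymus.

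**Figure D1:**
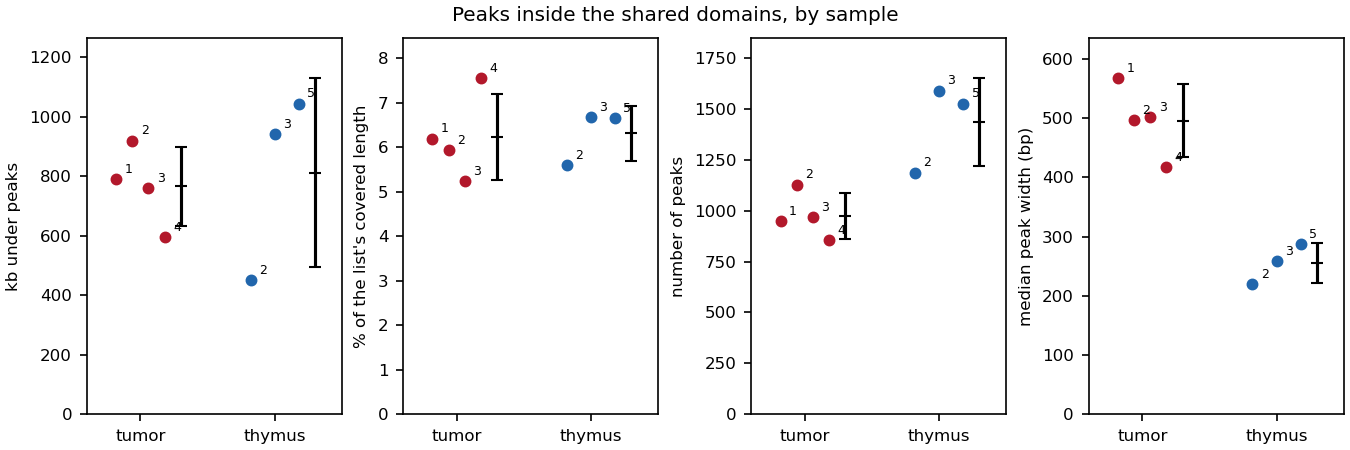
Values of the peaks inside the 82 shared domains, with 1 numbered point per sample (replicate number of the labels) and the group mean ± SD as a bar: kb under peaks, percent of the list's covered length, number of peaks and median width in bp. Tumors and thymus overlap in the first pair of panels, while every tumor has fewer peaks, of larger median width (417 to 568 bp), than every thymus sample (220 to 288 bp).

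Constituents were then compared as regions, the union of all peaks merged where they overlap by at least 1 bp. The domains held 2278 of 81921 regions, between 5 and 84 a domain (median 24). Of these, 317 (13.9%) were called in all 7 lists, against 8.57% of all regions, and 1197 (52.5%) were called in 1 list only, against 71.4% of all regions. Since the domains were selected on being large in every list, these shares follow in part from the rule. Every domain held at least 1 region of all 7 lists, and the cdkn2aipnl domain held the most, at 13. The 317 regions took 64.2 to 75.7% of the covered length of the domains in tumors and 66.3 to 77.1% in thymus. Regions called in a single list took 1.16 to 4.51% in tumors and 4.92 to 6.20% in thymus.

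**Figure D2:**
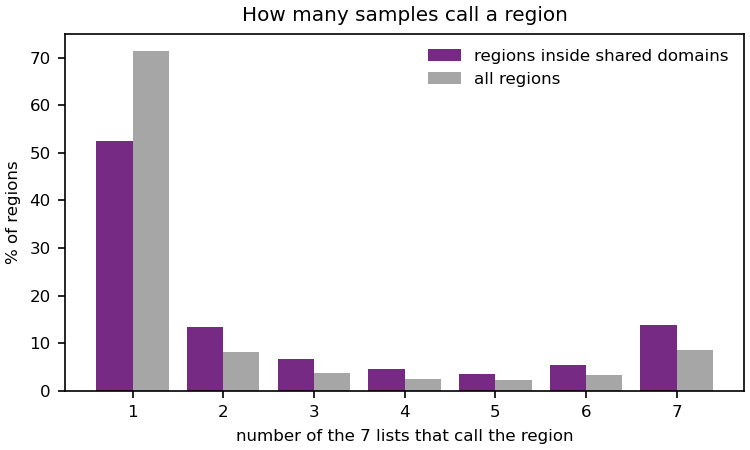
Percent of regions (vertical axis) by the number of the 7 lists that call them (horizontal axis), for the 2278 regions inside the shared domains and for all 81921 regions. Inside the domains 13.9% were called in all 7 lists, against 8.57% of all regions.

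In the list of tumor 1, which also gives the fold enrichment over background, the 948 constituent peaks had a median enrichment of 3.32 (quartiles 2.79 and 4.34), and the 21121 peaks outside had a median of 3.50 (quartiles 2.88 and 4.46). Among regions called in all 7 lists, the median was 3.91 inside the domains and 4.42 outside. Peaks of the domains called in tumor 1 alone had a median of 2.71. Constituents in this list were wider than other peaks, in part by the rule, while their median enrichment was lower. No other list gives the enrichment.

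Domain by domain, covered length was larger in every tumor than in every thymus sample in 3 of the 82 domains, and larger in every thymus sample in 5. Over all 1273 merged domains those shares were 11.9% and 14.6%, and since the rule asked for large domains in every list nothing is read from the lower shares here. An exact two-sided permutation test over the 35 assignments of 7 samples (smallest possible p 0.0286) gave p under 0.05 for 8 of the 82, against 15.4% of all merged domains. The smallest p adjusted by Benjamini-Hochberg over the 1273 domains was 0.186. With this design 728 domains at the smallest p would be needed for an adjusted p of 0.05, and covered length is also what chose the domains, so nothing is read from the test and the differences below are described by their values. Without thymus 2, the counts were 12 and 35 of 129 domains, against 13.7% and 29.3% of all. Thymus 3 alone lay below every tumor in 8 of the 82 domains (16% of all merged domains) and above every tumor in 35 (35.6% of all).

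The lists also differed in length, and the part of list length in these counts was not tested. When each domain was expressed as a share of its list's covered length, 9 domains were larger in every tumor and 14 in every thymus sample, against 16% and 19.8% of all merged domains. Mean shares differed by no more than 1.5-fold in 61 of the 82 domains, against 37% of all merged domains. Since the rule asked for large domains in every list, similar shares follow in part from it, and nothing is read from this contrast. The ratio of mean shares, tumor over thymus, ranged from 0.335 to 2.75 with a median of 0.989.

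The dgkza domain (chr7:39002305-39101604) had the largest surplus in tumors. dgkza encodes a diacylglycerol kinase, and in mammals its zeta form limits diacylglycerol signalling below the T-cell receptor. It had 19138, 39673, 19017 and 21489 bp under peaks in tumors 1, 2, 3 and 4, against 3940, 12725 and 13349 bp in thymus 2, 3 and 5. All tumors were above all thymus samples, and tumor 2 was far above the other tumors in covered length. As a share of the list, tumor 4 (0.272%) was above tumor 2 (0.256%), and the mean share in tumors was 2.70 times that of thymus. One of its constituents (chr7:39072539-39077113, picked after its values were seen) was called in all 7 lists, with 2628, 4539, 2440 and 3921 bp in tumors 1, 2, 3 and 4, against 164, 869 and 1162 bp in thymus 2, 3 and 5. This domain has no part that was kept in every list: its stretches are joined differently from sample to sample.

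The other domains larger in every tumor were smaller. The grap2b domain (chr6:391941-477507), near the gene of an adaptor that in mammals links LAT to SLP-76 in T-cell receptor signalling, had 8381, 8471, 11012 and 8310 bp in tumors 1, 2, 3 and 4, against 3711, 6168 and 6519 bp in thymus 2, 3 and 5. Its tumor values lay close together except for tumor 3. The domain annotated with si:ch1073-220m6.1 (chr7:6511251-6561032) had 7016, 6050, 7177 and 6957 bp in tumors 1, 2, 3 and 4, against 3097, 4786 and 4939 bp in thymus 2, 3 and 5.

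Among domains larger in every thymus sample, the domain annotated with zgc:153952 and, by closest start site, with stk17al and tmem86b (chr3:16796125-16878853) differed most. It had 9580, 9325, 6554 and 4822 bp in tumors 1, 2, 3 and 4, against 13601, 27863 and 27273 bp in thymus 2, 3 and 5, a mean share 0.335 times that of thymus. It ranked 58 to 204 in the tumors, against 2 and 4 in thymus 3 and 5. Part of the difference lay in a single stretch (chr3:16840329-16847906, picked after its values were seen), with 954, 814, 656 and 947 bp in tumors 1, 2, 3 and 4, against 2331, 6451 and 6613 bp in thymus 2, 3 and 5. Peaks were thus present there in every tumor, but short.

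The ccr9a domain (chr2:32760446-32847079) is annotated by closest start site with ccr9a, bfsp2 and zgc:136930. By promoter H3K27ac it is annotated with LOC110438072. The ccr9a gene encodes a chemokine receptor that guides lymphocyte precursors to the thymus. The domain had 13418, 10360, 9919 and 7681 bp in tumors 1, 2, 3 and 4, against 18941, 25818 and 26439 bp in thymus 2, 3 and 5. Its rank was 67 to 195 in tumors and 5 to 8 in thymus, and even the short list of thymus 2 was above every tumor. It held 8 to 13 peaks in tumors and 30 to 41 in thymus.

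The zfp36l1a domain (chr17:37733698-37872919) is named for an RNA-binding protein of a family that promotes decay of AU-rich mRNAs. It had 19150, 20111, 10779 and 16317 bp in tumors 1, 2, 3 and 4, against 20118, 33451 and 35082 bp in thymus 2, 3 and 5. Here thymus 2 exceeded tumor 2 by a few bp only, and the groups overlapped when peaks under 128 bp were left out. The tnfaip8l2a domain (chr19:341409-399542), whose mammalian relative restrains immune cell activation, had 6216 to 8946 bp in tumors and 9355 to 13775 bp in thymus. The ssh2b domain (chr21:40397513-40469749), near the gene of a slingshot phosphatase acting on the actin regulator cofilin, had 5155 to 6594 bp in tumors and 7087 to 12252 bp in thymus.

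**Figure D3:**
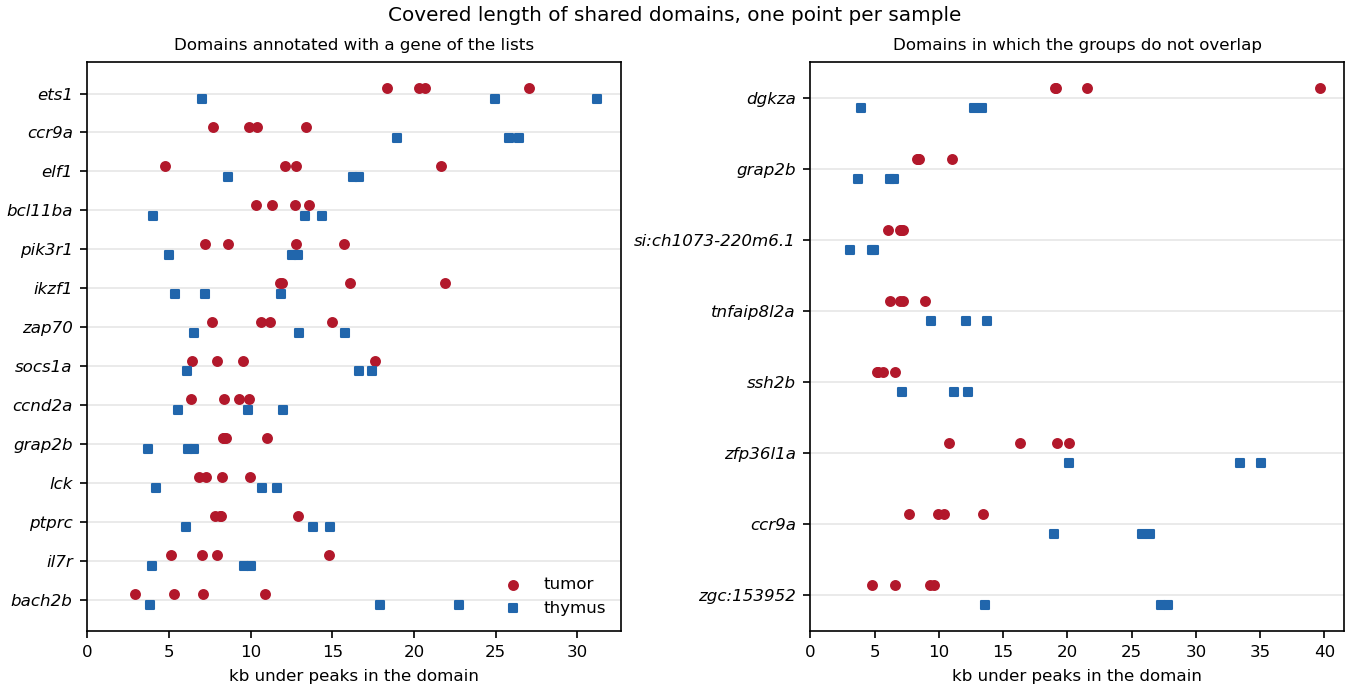
Kb under peaks (horizontal axis) in 1 domain per row, with 1 point per sample (red circles, tumors; blue squares, thymus). Left, the 14 domains annotated with a gene of the lists; right, the 8 domains in which the groups do not overlap, led by dgkza at the top with 19.0 to 39.7 kb in tumors and zgc:153952 at the bottom with 4.82 to 9.58 kb in tumors.

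Transcription factors of the T-cell lineage were annotated at 5 domains. The ikzf1 domain (chr13:15951460-16043047), named for the zinc finger factor Ikaros required for lymphocyte development, had 16100, 21877, 11829 and 11936 bp in tumors 1, 2, 3 and 4, against 5378, 7191 and 11852 bp in thymus 2, 3 and 5. Tumor 3 and thymus 5 were nearly equal, so the groups overlapped in length, while as a share of the list every tumor (0.0815 to 0.151%) was above every thymus sample (0.0510 to 0.0756%). The bcl11ba domain (chr17:18114723-18141629), named for a factor of T-lineage commitment, was compact, spanning 26.9 kb. It had 13595, 10309, 12695 and 11287 bp in tumors 1, 2, 3 and 4, against 4025, 13328 and 14369 bp in thymus 2, 3 and 5, with overlapping groups.

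The ets1 domain had 20670, 18343, 27045 and 20316 bp in tumors 1, 2, 3 and 4, against 7010, 24990 and 31241 bp in thymus 2, 3 and 5. The elf1 domain (chr14:40764122-40823001), named for another ETS factor, varied widely within the tumors, with 12779, 21646, 12090 and 4768 bp in tumors 1, 2, 3 and 4, against 8611, 16646 and 16250 bp in thymus 2, 3 and 5. In both, thymus 2 was far below the other thymus samples and the groups overlapped.

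The bach2b domain (chr20:24009509-24130855), named for a repressor that restrains effector differentiation of lymphocytes in mammals, had 10910, 7105, 5290 and 2903 bp in tumors 1, 2, 3 and 4, against 3861, 17902 and 22751 bp in thymus 2, 3 and 5. Thymus 3 and 5 were above every tumor, while thymus 2 lay among the tumors. It ranked 45 to 396 in the tumors, against 347, 9 and 8 in thymus 2, 3 and 5. Its share of the list was 0.0364 to 0.0855% in tumors, against 0.0480, 0.127 and 0.145% in thymus 2, 3 and 5.

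Genes of T-cell receptor signalling were annotated at 4 domains, grap2b among them. The lck domain (chr17:25353513-25409522), at the gene of the Src-family kinase that starts receptor signalling, had 6826, 8260, 9945 and 7281 bp in tumors 1, 2, 3 and 4, against 4227, 11591 and 10683 bp in thymus 2, 3 and 5. Both groups carry transgenes with the lck promoter, so reads from the endogenous promoter and from transgene copies cannot be told apart there. The zap70 domain (chr8:20415373-20467991), named for the kinase that binds the phosphorylated receptor chains, had 7614, 14979, 11187 and 10659 bp in tumors 1, 2, 3 and 4, against 6536, 12986 and 15751 bp in thymus 2, 3 and 5. It had 39.7 kb in kept domains of every list, out of a span of 52.6 kb, and its mean shares in tumors and thymus were nearly equal (ratio 1.01).

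The ptprc domain (chr22:23045210-23084519), at the gene of the leukocyte phosphatase CD45, had 7836, 12908, 8130 and 8184 bp in tumors 1, 2, 3 and 4, against 6012, 13795 and 14865 bp in thymus 2, 3 and 5. Tumor 2 alone reached toward the thymus 3 value, and the other tumors lay between thymus 2 and thymus 3. With thymus 2 left out, the groups did not overlap in covered length in the lck, bach2b and ptprc domains, and each was larger in thymus. The same held for the zgc:153073 and cdkn2aipnl domains. In the other direction, the groups did not overlap and tumors were larger in the ikzf1 domain without tumor 3, without thymus 5 or without peaks under 128 bp, and in the LOC103910056 domain without tumor 1 or without thymus 5. As a share of the list, lck held 0.0532 to 0.0922% in tumors, against 0.0821 and 0.0681% in thymus 3 and 5. The ptprc domain held 0.0560 to 0.104%, against 0.0977 and 0.0948%. In share, both thus overlapped even without thymus 2, while bach2b, zgc:153073 and cdkn2aipnl did not. Of all merged domains built without thymus 2, 29.3% were larger in thymus.

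Cytokine and chemokine pathway genes were annotated at 3 domains, ccr9a among them. The il7r domain (chr21:22398187-22469485), at the gene of the interleukin-7 receptor needed by developing T cells, had 7029, 14772, 5099 and 7959 bp in tumors 1, 2, 3 and 4, against 3990, 10002 and 9590 bp in thymus 2, 3 and 5. The socs1a domain (chr3:26787471-26906310), named for a suppressor of cytokine signalling, had 7948, 17610, 9516 and 6423 bp in tumors 1, 2, 3 and 4, against 6110, 17418 and 16633 bp in thymus 2, 3 and 5. In both, tumor 2 was the highest tumor and the groups overlapped.

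Growth genes were annotated at 2 shared domains. The pik3r1 domain (chr5:54764775-54809387), at the gene of a regulatory subunit of phosphoinositide 3-kinase, had 8615, 15734, 7206 and 12750 bp in tumors 1, 2, 3 and 4, against 4980, 12909 and 12559 bp in thymus 2, 3 and 5. The ccnd2a domain (chr25:17223059-17261054), at the gene of cyclin D2, had 8386, 9274, 9895 and 6321 bp in tumors 1, 2, 3 and 4, against 5571, 9822 and 11999 bp in thymus 2, 3 and 5. Its share of the list was 0.0598 to 0.0800% in tumors and 0.0693 to 0.0765% in thymus. The ccnd2a gene was also annotated at merged domains outside the shared set. At chr25:16969566-17043005, kept in 5 lists, tumors 1, 2, 3 and 4 had 8575, 13506, 10539 and 13053 bp. Thymus 2, 3 and 5 had 841, 5005 and 6423 bp there, without overlap. At chr25:17115386-17181897, kept in 4 lists, tumors 1, 2, 3 and 4 had 3056, 4806, 3251 and 1424 bp. Thymus 2, 3 and 5 had 3567, 10381 and 12162 bp there, and the groups overlapped.

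None of the 3 V(D)J recombination genes was annotated at a shared domain, but the annotation held only 2 of them. The rag2 domain was kept in 4 lists, 3 of tumors and 1 of thymus. It had 4323, 1404, 7216 and 6652 bp in tumors 1, 2, 3 and 4, against 801, 3990 and 7575 bp in thymus 2, 3 and 5. The groups overlapped there. Other T-cell genes were annotated at merged domains kept in fewer lists, among them runx3, prkcq and lcp2a at domains kept in 6 lists. A further runx3 domain was kept in the 3 thymus lists and in no tumor list. Some domains were thus kept in lists of 1 group only. Both gata3 domains were kept in all 4 tumors, and the tox2 domain in 3 tumors. Those of ccr7 and cxcr4a were kept in all 3 thymus lists, and those of cd8a, foxo1a and id3 in 2.

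**Figure D4:**
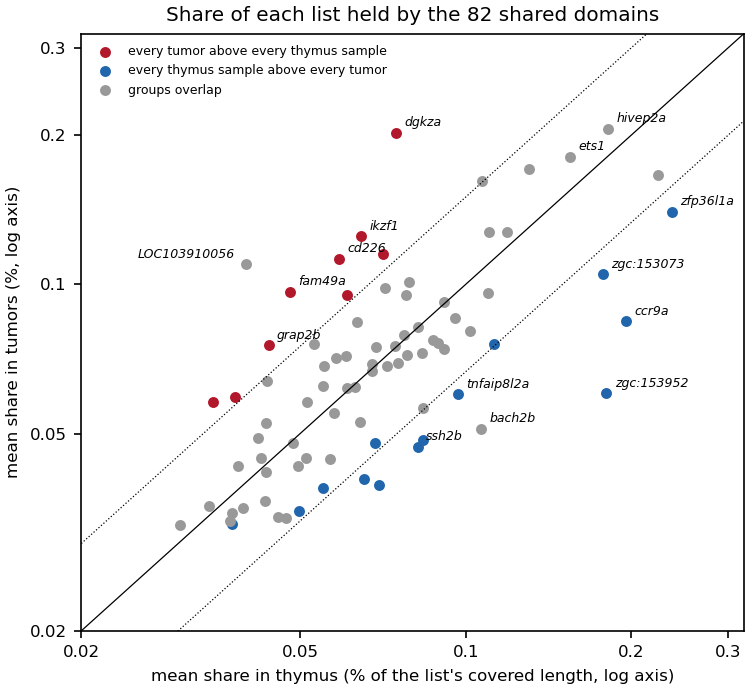
Mean share of the list's covered length held by each of the 82 shared domains, in thymus (horizontal) and in tumors (vertical), in percent on log axes; the solid line marks equal shares and the dotted lines 1.5-fold. The 61 domains between the dotted lines include ets1 and hivep2a, while dgkza lies above and ccr9a and zgc:153952 lie below.

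The domains with the most covered length over all samples were those of hivep2a, a zinc finger transcription factor (median 30511 bp), cdkn2aipnl (23403 bp), zgc:162730 (21309 bp), ets1 (20670 bp) and zfp36l1a (20111 bp). Of these, hivep2a, cdkn2aipnl and zgc:162730 ranked in the top 100 of every list, with hivep2a (chr20:37522213-37658557) at 34589, 37076, 23493 and 12007 bp in tumors 1, 2, 3 and 4, against 9464, 30511 and 32949 bp in thymus 2, 3 and 5. The other domains among the 10 largest were those of dgkza, midn, hdac7a (a class IIa histone deacetylase), LOC110438037 and zgc:153073, whose closest start site is that of vsir, an inhibitory immune receptor. The zgc:153073 domain (chr13:43080118-43149599) had 9889 to 16380 bp in tumors and 12263 to 28660 bp in thymus. As a share of the list, it held 0.0683 to 0.128% in tumors and 0.153 to 0.197% in thymus, without overlap.

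Regions called in every sample of 1 group and in no sample of the other made up a small part of the constituents. The tumor-only share was below that of all regions, and the thymus-only share was above it. Of 2278 constituents, 3 had peaks in all 4 tumors and in none of the thymus samples (0.132%, against 0.474% of all regions), and 29 in all 3 thymus samples and no tumor (1.27%, against 0.652%). Without thymus 2, the counts were 16 (0.520%, against 0.574%) and 141 (4.58%, against 2.46%) of 3076 constituents. With thymus 3 as the only thymus list, 14 regions (0.615%, against 0.863% of all) were called in all 4 tumors and not there, and 504 (22.1%, against 18.2%) were called there and in no tumor. Without peaks under 128 bp and with the same 82 domains, the counts were 6 tumor-only (0.329%, against 0.698% of all regions) and 17 thymus-only (0.932%, against 0.543%) of 1825 constituents. All these shares are a description, since the domains were selected on being large in every list. Regions of 1 list only were also rarer inside the domains (52.5%) than among all regions (71.4%), so the backgrounds are not alike. Nothing is therefore read from the higher thymus-only share or from the lower tumor-only share.

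The 3 tumor-only constituents lay in the nt5dc2, il7r and pygmb domains. The nt5dc2 region (chr8:23633072-23635051) had 781, 1980, 226 and 1766 bp in tumors 1, 2, 3 and 4. The il7r region (chr21:22412304-22413225) had 604, 869, 744 and 172 bp in tumors 1, 2, 3 and 4, and the same domain held 1 thymus-only region about as short in thymus 2 as the narrowest peaks of that list. That thymus-only region (chr21:22444710-22445122, picked after its values were seen) had 53, 307 and 184 bp in thymus 2, 3 and 5. The pygmb region (chr7:22820657-22821630) had 218, 627, 792 and 72 bp in tumors 1, 2, 3 and 4. The 72 bp in tumor 4 equals the narrowest peak of that list. Without peaks under 128 bp, the groups were no longer apart in the pygmb region.

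The 29 thymus-only constituents lay in 20 domains, led by bach2b with 4, zgc:153952 and zgc:153073 with 3 each, and ccr9a and mir142a (a microRNA of blood cells) with 2 each. The largest was in the ccr9a domain (chr2:32781860-32785371), with 1995, 2939 and 3076 bp in thymus 2, 3 and 5. It was a broad stretch in each thymus sample and no tumor list had any peak in it. A region in the ets1 domain (chr18:48314908-48315895) had 642, 787 and 658 bp in thymus 2, 3 and 5, similar in all 3 samples. Regions in the zgc:153073 domain (chr13:43102010-43103670) had 477, 1391 and 1123 bp, in the zgc:153952 domain (chr3:16819040-16820033) 740, 539 and 331 bp, and in the bach2b domain (chr20:24102886-24103674) 234, 414 and 586 bp. All 3 had no peak in any tumor.

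**Figure D5:**
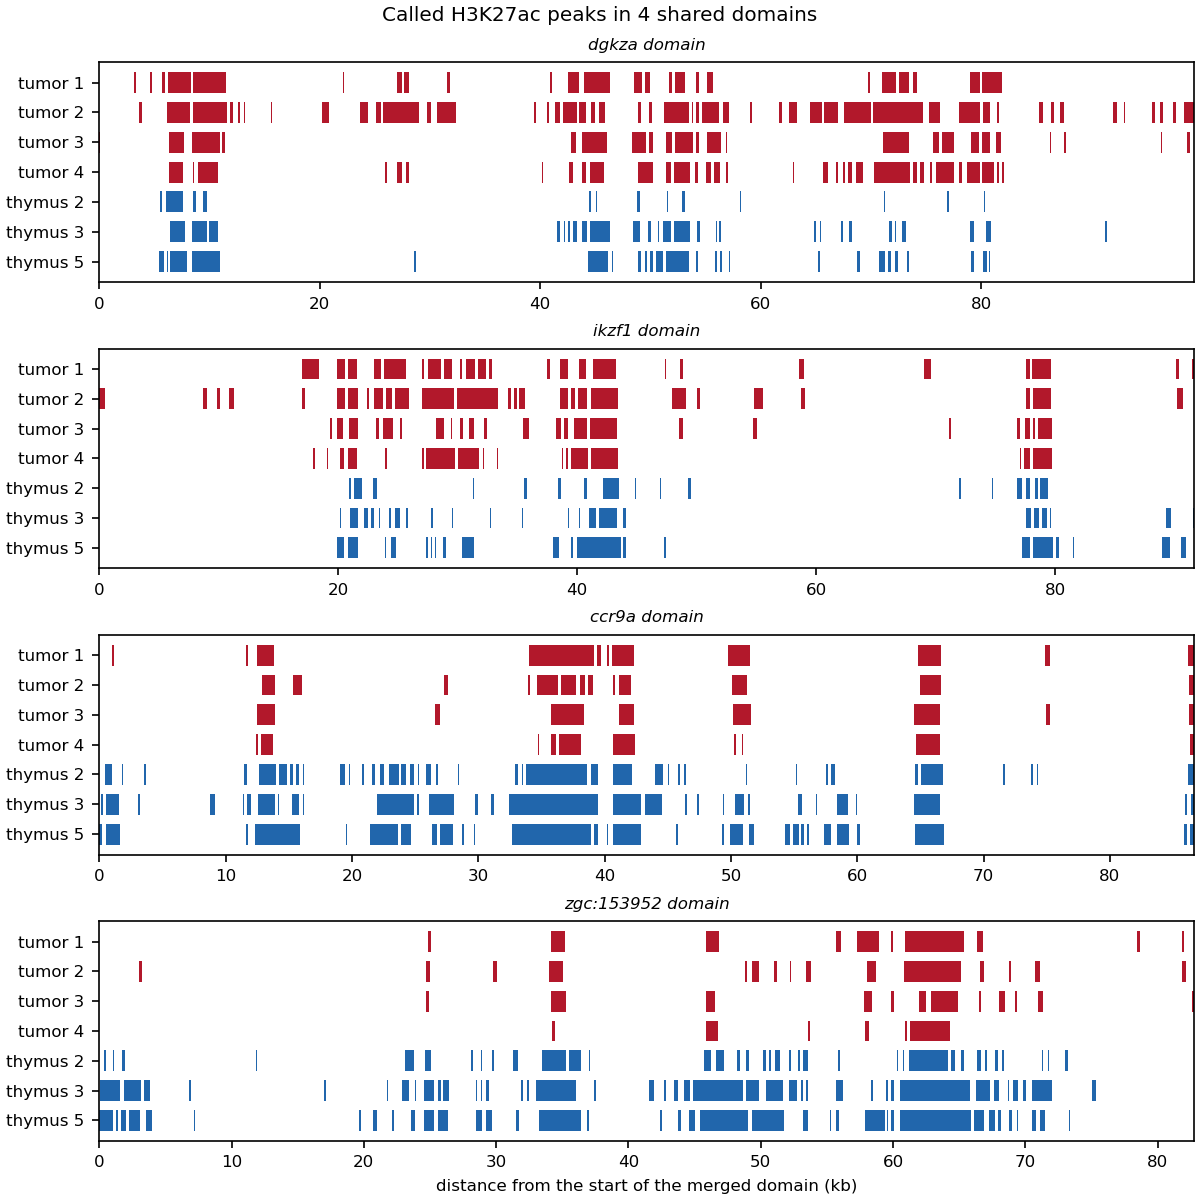
Called H3K27ac peaks (filled blocks) in the dgkza, ikzf1, ccr9a and zgc:153952 domains, 1 row per sample with tumors in red above thymus in blue, against distance in kb from the start of the merged domain. The block near 21 to 25 kb of the ccr9a domain is present in the 3 thymus rows and absent from the 4 tumor rows, while the dgkza domain shows longer blocks in the tumors near 70 to 75 kb.

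Among the 317 constituents of all 7 lists, 18 (5.68%) were wider in every tumor and 30 (9.46%) in every thymus sample, against 3.05% and 10.6% of all 7019 regions called in every list. Without thymus 2, they were 72 (13.2%) and 134 (24.6%) of 545, against 4.91% and 31.7%. The share wider in tumors was above the background with all samples and with any 1 left out, and the share wider in thymus was below it except without tumor 4 (11.5%, against 10.7%). These shares are read as a description, since covered length also chose the domains. Runs with 1 sample left out share most samples and the same rule, so their agreement is not separate support. Some domains held constituents of both directions: the ets1 domain held 1 constituent wider in tumors (chr18:48270057-48271199, picked after its values were seen, with group means of 1054 bp in tumors and 709 bp in thymus) beside the thymus-only region given above.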

How the data were processed

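H3K27ac ChIP-seq libraries of 4 tumors and 3 thymus samples were used as peak lists. Single-end reads of 50 bp were aligned by the authors to GRCz11 with Bowtie2, and duplicates were removed with SAMtools. Broad peaks were called by the authors per sample against whole cell lysate with MACS2 (2.1.1.2016030). For tumor 1 alone, the authors deposited a score, a fold enrichment ratio, and p- and q-values on the −log10 scale, of which the fold enrichment was used. The other lists hold positions and names only. The inputs were not used here.

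Samples were grouped by their labels. Domains, regions and covered length were computed in Python 3.11.15 with NumPy 2.4.6, and the code was tested on simulated lists. Unlike the study's stitching, promoter peaks were not left out and ranking used covered length. A region counted as called where any peak of a list touched it. The 10 domains with the highest median covered length, those whose groups did not overlap, the one nearest the rank limit, and those annotated with a gene of the lists were named, with up to 5 tumor-only and 5 thymus-only regions of highest smallest covered length (3 tumor-only regions were found). Members, gene lists and tests were chosen with earlier results of these data known. No sequence is shown, as no genome of this build was used here. Alternatives were joining within 5 kb, keeping 250 or 1000 domains, merging at 50% overlap, peaks of at least 128 bp, removal of the widest stretches of tumor 2, calls needing 50% cover, shares of the list, the replicate block, and leaving out 1 sample at a time.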

Additional observations from a re-analysis of the deposited data

Results flagged for a closer look

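In 3 of 33 measures looked at among the 4 tumors, 1 tumor lay far from the other 3, which chance brings in about 1 of 20 groups. Tumor 3 had 11012 bp under peaks in the grap2b domain, above 8310 to 8471 bp in the other tumors. Tumor 2 had 39673 bp in the dgkza domain, above 19017 to 21489 bp in the others, and 12908 bp in the ptprc domain, above 7836 to 8184 bp in the others. The list of tumor 2 was the longest of the tumor lists, at 15515 kb under peaks. It held 36 peaks wider than 9026 bp, the widest peak of any other list. Without those stretches the shared domains took 6.23% of the tumor 2 list, against 5.93% with them. As a share of the full list, tumor 4 was the highest tumor in the grap2b, dgkza and ptprc domains. In the dgkza domain it held 0.272%, against 0.256% in tumor 2. In the ptprc domain it held 0.104%, against 0.0832% in tumor 2, and in the grap2b domain 0.105%, against 0.0758% in tumor 3. The part of list length in these values was not tested.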

How the results depend on the processing

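Under each alternative, the differences between tumors and thymus in covered length, share, median width and width ratio moved by less than 1 SD, and the signs of covered length, share and width ratio turned in some. Joining within 5 kb gave a difference in constituent peaks of -219, 0 tumor-only and 15 thymus-only constituents, and 7 and 18 constituents of all lists wider in tumors and in thymus. Keeping 250 domains gave 24 shared domains, a peak difference of -189, 0 tumor-only and 12 thymus-only constituents, 0 domains larger in tumors, and 1 and 14 wider constituents. Keeping 1000 gave 233 shared domains, -857, 20 and 71, 14 and 17 domains larger in tumors and in thymus, and 47 and 80. Building the domains again from peaks of at least 128 bp gave 74 shared domains, -187 and 14 thymus-only constituents (0.925%, against 0.543% of all regions). Calls needing 50% cover gave 0 tumor-only and 3 thymus-only constituents, and shares of the list gave 9 and 14 larger domains. For joining within 5 kb, keeping 250 or 1000 domains and calls needing 50% cover, shares over all features are not given here. Counts under these settings also change with the number of domains and regions, so nothing is read from them about the members. Leaving out 1 sample gave 84 to 129 shared domains, a peak difference of -656 to -368, 7 to 20 tumor-only and 44 to 141 thymus-only constituents, 3 to 12 and 4 to 35 larger domains, and 20 to 72 and 28 to 134 wider constituents. The highest counts and the largest peak difference came without thymus 2, except the 20 tumor-only constituents, which came without tumor 4. A group of fewer samples meets such calls more easily. The shares of members were 0.276 to 0.772% and 1.70 to 4.58% (tumor-only and thymus-only), 3.13 to 9.52% and 4.76 to 27.1% (larger domains), and 5.70 to 13.2% and 8.56 to 24.6% (wider), against 0.574 to 1% and 0.711 to 2.46%, 13.4 to 17.8% and 15.1 to 29.3%, and 3.3 to 8.65% and 10.7 to 31.7% over all features. Without thymus 2, the difference changed sign in 8 of 28 named domains. It changed sign in 12 of them in at least 1 of the runs without 1 sample or without peaks under 128 bp. With the replicate block, the mean differences within numbers 2 and 3 were 144 kb, -0.556 percentage points, -340 peaks, 260 bp and 0.118 in width ratio. The numbers name different fish and do not pair them. Without read counts, the depth behind each list could not be weighed.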
